A study of Mus musculus with 1279 samples.

Results

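The 10 genes described here encode transcription factors that act in connective tissue and vessel wall cells. They are the T-box factors Tbx2 and Tbx3, the early B-cell factors Ebf1 and Ebf2, the forkhead factor Foxs1, the orphan nuclear receptors Nr2f1 and Nr2f2, the oxygen-regulated factor Epas1, the paired-type homeobox factor Prrx1 and the zinc finger factor Osr1. They were chosen by name, with earlier results of these data known. All 10 were found among the 46517 genes counted in single cells of the mouse heart. The cells came from male adult mice of 4 strains, all on the C57Bl6/J background. C57BL6 mice carried no reporter, and their cells were sorted with antibodies against PDGFRα or PDGFRβ. PdgfrbGFP mice carried green fluorescent protein under Pdgfrb regulatory sequence, Cspg4dsRED mice carried DsRed under that of Cspg4, and Acta2GFP mice carried green fluorescent protein under that of Acta2, so each sort selected the cells in which that promoter was active. Cells positive for the endothelial protein CD31 were excluded in all sorts, and elastase was added to the digestion for Acta2GFP. The labels placed 926 cells in clusters 1 to 5, which the study assigned to fibroblasts, and 353 cells in clusters 6 to 8. Clusters 6 to 8 are grouped as mural cells below, the smooth muscle cells and pericytes that wrap vessels. By its 5 mural markers cluster 6 fits that name least. They summed to 781 to 2446 CPM, against 5507 to 11671 CPM in the pooled cells of clusters 7 and 8. Its 5 fibroblast markers summed to 3108 to 12491 CPM. Its 4 smooth muscle markers summed to 9946 to 13384 CPM, against 10670 to 15717 CPM in cluster 7 and 201 to 4033 CPM in cluster 8. The strain was the replicate, since the labels name no animal. Strain, sort and plate cannot be told apart, and the p-values measure the spread between strains.

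Transcription factors of this kind set cell identity by binding short DNA motifs near the genes they control. T-box factors bind as repressors or activators and are known from limb and heart development. Ebf factors act in B cells, in adipocyte precursors and in perivascular cells, and Nr2f2, also called COUP-TFII, is known for its part in the identity of veins. Epas1 encodes an alpha subunit of the hypoxia-inducible factors, which prolyl hydroxylases mark for degradation when oxygen is plentiful, so its mRNA level does not give the level of the active protein. Prrx1 and Osr1 mark embryonic mesenchyme that gives rise to connective tissue.

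RefSeq start sites on GRCm38.p6 were given for 4 of the 10 genes. The 250 bases before a start are shown for Nr2f2 and for an internal start of Ebf1, because both genes were higher in mural cells in all 4 strains and neither window holds an exon of its gene. They were searched on both strands for GGTGTGA (the T-box core), ACGTG (the hypoxia response core), AGGTCA (the nuclear receptor core) and for the EBF palindrome, and matches are in capitals.
Nr2f2, chr7:70366747-70366996, minus strand: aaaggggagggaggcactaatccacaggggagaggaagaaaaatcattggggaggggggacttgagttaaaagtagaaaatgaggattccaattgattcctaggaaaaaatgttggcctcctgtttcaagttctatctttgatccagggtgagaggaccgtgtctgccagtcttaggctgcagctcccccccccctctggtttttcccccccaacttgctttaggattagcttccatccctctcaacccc
Ebf1, chr11:44619978-44620227, plus strand: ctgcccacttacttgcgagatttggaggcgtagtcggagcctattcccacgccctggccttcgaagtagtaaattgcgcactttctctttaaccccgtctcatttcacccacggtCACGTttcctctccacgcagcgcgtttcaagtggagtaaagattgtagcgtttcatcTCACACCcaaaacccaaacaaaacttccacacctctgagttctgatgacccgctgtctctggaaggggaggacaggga
The Ebf1 window held 1 T-box core and 1 hypoxia response core, and the Nr2f2 window held none of the 4 motifs. Of 32851 windows of the same length, 3.33% held a T-box core, 16.6% a hypoxia response core, 14.02% a nuclear receptor core and 0.779% an EBF palindrome. A match is a description of the letters and not a binding site.

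Depth was 46268 to 1302397 counts per cell with a median of 274504, and the values below are CPM, the counts of a gene per 1000000 counts in the summed cells of a strain and cell group. On GRCm38, the genes lie with Tbx2 at chr11:85832551-85841948 (plus strand) and Tbx3 at chr5:119670669-119684724 (plus strand), with Ebf1 at chr11:44617317-45008091 (plus strand) and Ebf2 at chr14:67233292-67430918 (plus strand) and with Foxs1 at chr2:152931898-152933208 (minus strand). The others are Nr2f1 at chr13:78188973-78199757 (minus strand), Nr2f2 at chr7:70351944-70366735 (minus strand), Epas1 at chr17:86753700-86833410 (plus strand), Prrx1 at chr1:163245119-163313710 (minus strand) and Osr1 at chr12:9570116-9581500 (plus strand). Reads were counted over the exons of each gene. The members had between 3347 reads in all cells (Nr2f1) and 87293 reads (Epas1).

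The first comparison asked which of the factors distinguish mural cells from fibroblasts. Of the 10 factors, 6 were higher in mural cells with an adjusted p under 0.05 (edgeR quasi-likelihood F test on sums per strain): Tbx2, Tbx3, Nr2f2, Epas1, Foxs1 and Ebf1. None of the 10 was called higher in fibroblasts. Among all 15117 genes tested, 5.93% were called in either direction and 2.45% were called higher in mural cells. The median log2 fold change of mural cells over fibroblasts was 2.48 for the 10 factors and 0.02 for all genes. The clusters had been made by the authors from the same counts, so these p-values are not independent of how the groups were drawn. The factors were also chosen with earlier results of these data known, so their share and median are descriptions and not evidence of enrichment. The mural sums also differ in make-up, since cluster 8 gave 33 of 37 cells in C57BL6, 119 of 128 in PdgfrbGFP, 29 of 137 in Cspg4dsRED and 15 of 51 in Acta2GFP.

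Tbx2 and Tbx3 had the largest fitted fold changes. Tbx2 was at 107, 52.8, 77.8 and 126 CPM in mural cells of C57BL6, PdgfrbGFP, Cspg4dsRED and Acta2GFP, and at 3.31, 4.18, 0.284 and 4.52 CPM in the fibroblasts of the same strains. The groups did not overlap, and the lowest mural value lay far above the highest fibroblast value. The log2 fold change was 4.85 ± 0.76 (SE), 28.8-fold, with an adjusted p of 0.00503. Tbx3 was at 67.6, 29.2, 34.4 and 32.5 CPM in mural cells and at 1.77, 3.02, 0.569 and 1.94 CPM in fibroblasts, again without overlap. Its log2 fold change was 4.45 ± 0.75, with an adjusted p of 0.00717. Of 926 fibroblasts, 23 reached 10 CPM of Tbx2 (2.48%, 95% exact binomial interval 1.58 to 3.70%) and 9 reached 10 CPM of Tbx3 (0.972%, 0.445 to 1.84%). In PdgfrbGFP, 94.1% of the Tbx3 reads of fibroblasts came from 1 cell. Of 353 mural cells, 85 reached 10 CPM of Tbx2 (24.1%, 19.7 to 28.9%) and 76 reached 10 CPM of Tbx3 (21.5%, 17.4 to 26.2%). Most mural cells were below 10 CPM for each of these genes. Intervals here and below treat the cells pooled over strains as independent, so they leave out the spread between strains. The reads also carried no molecular identifiers and can be copies of 1 molecule.

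**Figure D1:**
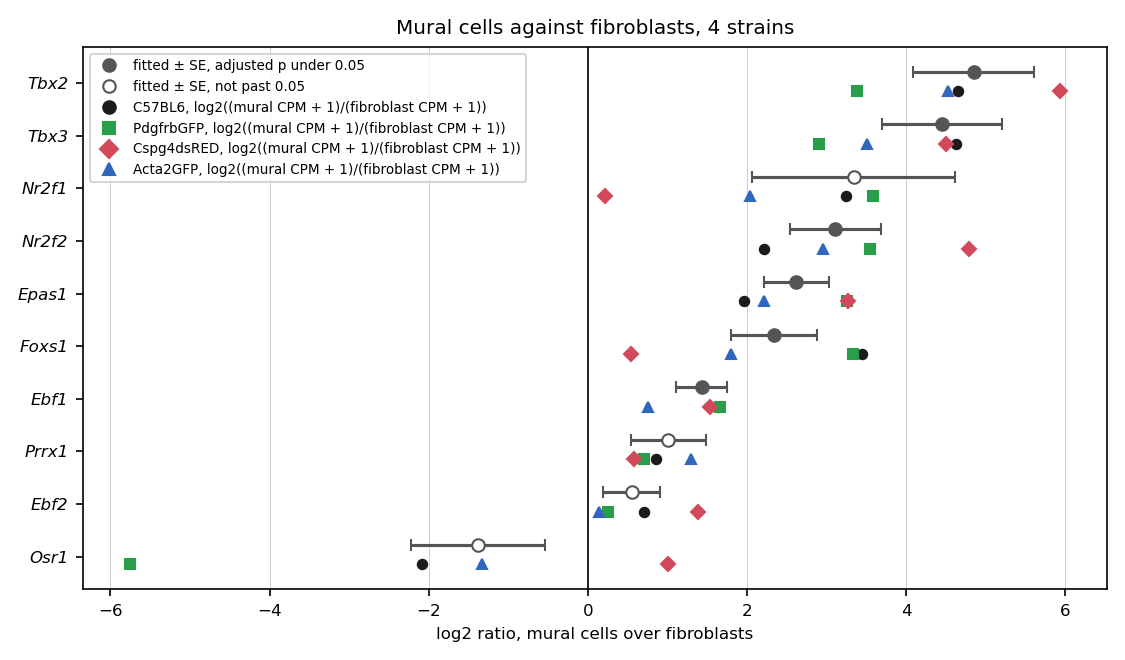
Log2 ratio of mural cells over fibroblasts for each factor. Grey circles are fitted fold changes ± SE over 4 strains, filled where the adjusted p was under 0.05 and open where it was not, and coloured symbols are the ratios within each strain with a pseudocount of 1 CPM. The fitted values of Tbx2 and Tbx3 lie farthest to the right, within PdgfrbGFP Nr2f1 (3.59) and Nr2f2 (3.54) lie right of Tbx2 (3.38), and these, Foxs1 (3.33) and Epas1 (3.26) right of Tbx3 (2.91), within Cspg4dsRED Nr2f2 (4.79) lies right of Tbx3, and Osr1 lies left of 0 in 3 of 4 strains.

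Ebf1 was present on both sides and higher in mural cells. It was at 491, 398, 265 and 291 CPM in mural cells and at 158, 125, 91.3 and 171 CPM in fibroblasts of C57BL6, PdgfrbGFP, Cspg4dsRED and Acta2GFP. The log2 fold change was 1.43 ± 0.32, 2.69-fold, with an adjusted p of 0.0257, and the groups did not overlap. Its relative Ebf2 was at 235, 142, 148 and 181 CPM in mural cells and at 144, 119, 56.1 and 165 CPM in fibroblasts. Ebf2 was higher in mural cells in 4 of 4 strains, but the groups overlapped and the log2 fold change of 0.55 ± 0.36 had an adjusted p of 0.528. The antisense gene Gm10860 overlaps 6.12% of the Ebf2 exon bases, and since the libraries did not mark strand, reads there cannot be told apart. The same holds for 7.46% of the Nr2f2 exon bases, overlapped by B130024G19Rik, and for 2.42% of those of Nr2f1, overlapped by A830082K12Rik, both on the other strand.

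Foxs1, a forkhead factor with a single-exon gene, was at 477, 529, 212 and 160 CPM in mural cells and at 42.8, 51.8, 146 and 45.0 CPM in fibroblasts. The groups did not overlap, but the highest fibroblast value, from the 26 fibroblasts of Cspg4dsRED, came close to the lowest mural value. The mural values were higher in C57BL6 and PdgfrbGFP, where most mural cells were of cluster 8, and the part of this make-up was not tested. The log2 fold change was 2.34 ± 0.54, 5.05-fold, with an adjusted p of 0.0316. With strain as a replicate block the adjusted p was 0.0717 and the call was lost, in a fit in which 4.81% of all genes were called.

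The nuclear receptors differed in how evenly the strains showed them. Nr2f2 was at 242, 268, 184 and 269 CPM in mural cells and at 51.0, 22.1, 5.69 and 33.8 CPM in fibroblasts, without overlap. Its log2 fold change was 3.11 ± 0.57, 8.61-fold, with an adjusted p of 0.0108. Nr2f1 was at 63.8 and 61.6 CPM in mural cells of C57BL6 and PdgfrbGFP, and at 3.90 and 3.804 CPM in those of Cspg4dsRED and Acta2GFP. In fibroblasts it was at 5.83, 4.18, 3.22 and 0.165 CPM. Nr2f1 was thus higher in mural cells in 4 of 4 strains, but the groups overlapped, and the log2 fold change of 3.34 ± 1.28 had an adjusted p of 0.199. DESeq2 called Nr2f1 with an adjusted p of 0.0192, in a fit in which 13.2% of all genes were called, and its adjusted p ranged from 0.0192 to 0.490 over 10 alternatives.

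Epas1 was the member with the most reads. It was at 411, 497, 725 and 842 CPM in mural cells and at 105, 50.9, 74.1 and 180 CPM in fibroblasts, and the groups did not overlap. The log2 fold change was 2.62 ± 0.41, 6.16-fold, with an adjusted p of 0.00476. Of 353 mural cells, 266 reached 10 CPM (75.4%, 70.5 to 79.8%). Epas1 and Nr2f2 are also known from endothelial cells. The 7 endothelial markers summed to 111 to 320 CPM in the fibroblasts and to 4.401 to 41.7 CPM in the mural cells of the 4 strains. Tek alone was at 105, 84.9, 139 and 194 CPM of the fibroblast sums of 146, 111, 320 and 211 CPM, while Pecam1 reached 26.7 CPM in mural cells of Acta2GFP. In C57BL6 mural cells Kdr, Cldn5, Emcn and Tie1 were at 0, while 0 of the 7 markers were at 0 in mural cells of the other strains, where Emcn reached 15.7 CPM in PdgfrbGFP. The part of endothelial RNA in these results was not tested. The 9 cardiomyocyte markers were higher in mural cells, at 301 to 940 CPM against 24.6 to 133 CPM, and their part in these results was not tested. Pln and Tnnt2 were the cardiomyocyte markers called, with adjusted p-values of 0.00487 and 0.0205, and in mural cells the highest of the 9 was Mb in C57BL6, at 72.7 CPM, and Pln in PdgfrbGFP, Cspg4dsRED and Acta2GFP, at 138, 569 and 642 CPM. Pln is also known from smooth muscle.

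Prrx1 and Osr1 did not pass the threshold. Prrx1 was at 184, 164, 117 and 489 CPM in mural cells and at 101, 99.8, 77.8 and 198 CPM in fibroblasts, so it was present on both sides, higher in mural cells in 4 of 4 strains, and overlapping between them. Its log2 fold change was 1.01 ± 0.47 with an adjusted p of 0.314. Osr1 was at 62.9, 3.06, 162 and 48.7 CPM in mural cells and at 271, 219, 79.7 and 124 CPM in fibroblasts. It was lower in mural cells in 3 strains and higher in Cspg4dsRED, and the log2 fold change of -1.38 ± 0.84 had an adjusted p of 0.488. When clusters 1 and 6 were left out, Osr1 passed the threshold with a log2 fold change of -4.18 and an adjusted p of 0.0229, in a fit in which 7.27% of all genes were called. The members called were then the same 6 and Osr1.

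The calls were repeated with other settings. Tbx2 and Epas1 passed the threshold in all 10 alternatives, including each strain left out in turn. The number of factors called was 6 without Cspg4dsRED, 3 without C57BL6, 3 without PdgfrbGFP and 2 without Acta2GFP. The share of all genes called fell with it, from 5.93% to 3.91%, 2.79%, 2.66% and 2.7% in the same order. The number of factors called was 6 with DESeq2 size factors (6% of all genes called), 5 without the filter on low counts (2.58%) and 6 with thinned cells (8.08%). Ebf1 and Foxs1 lost their calls without C57BL6, PdgfrbGFP or Acta2GFP, Tbx3 without C57BL6 or Acta2GFP, and Nr2f2 without PdgfrbGFP or Acta2GFP. Over the 10 alternatives the log2 fold changes stayed at 1.34 to 1.63 for Ebf1, 1.93 to 3.14 for Foxs1, 4.07 to 5.06 for Tbx3 and 2.94 to 3.57 for Nr2f2. Adjusted p-values with 1 strain left out reached 0.134 for Ebf1, 0.183 for Foxs1, 0.0631 for Tbx3 and 0.0751 for Nr2f2. C57BL6 fibroblasts came mainly from a pair of plates, and its mural cells came from 1 of them. On that plate, heart_203s, Tbx2 was at 107 CPM in mural cells and 3.37 CPM in fibroblasts, Epas1 at 411 and 136 CPM, and Nr2f2 at 242 and 53.9 CPM. These genes were thus higher in mural cells within 1 plate too.

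**Figure D2:**
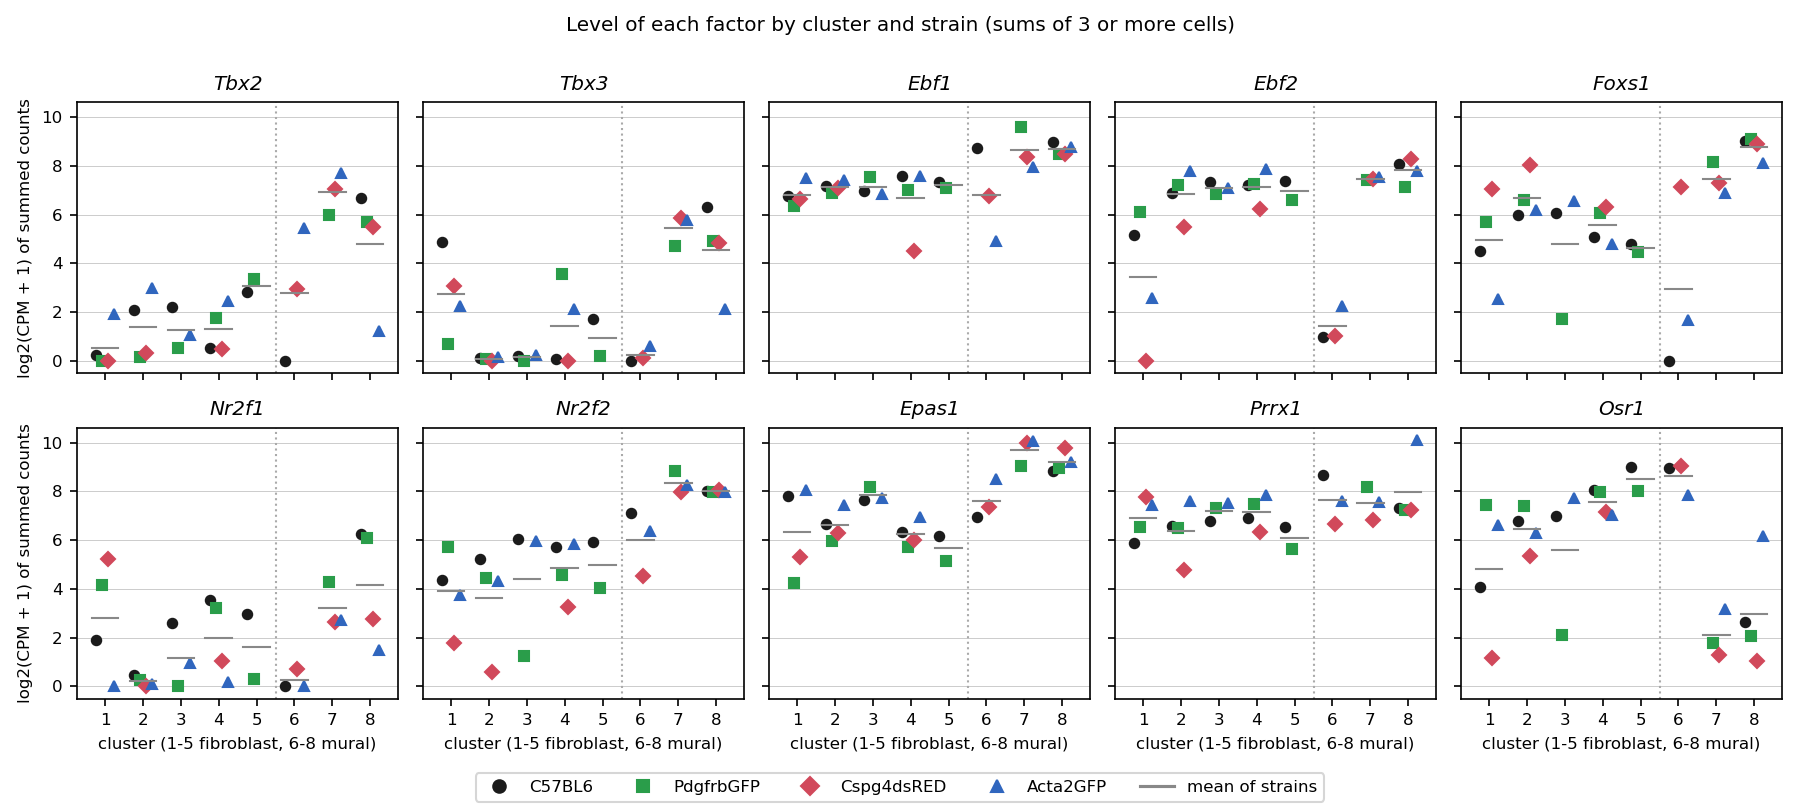
Level of the 10 factors by cluster, as log2(CPM + 1) of the summed counts of each strain with 3 or more cells. Symbols are strains, grey lines are means over strains, and the dotted line separates clusters 1 to 5 (fibroblasts) from clusters 6 to 8 (mural cells). The means of Tbx2, Tbx3, Nr2f2 and Epas1 are higher in clusters 7 and 8 than in clusters 1 to 5, but in Acta2GFP Tbx2 in cluster 8 (1.34 CPM) is below clusters 2 and 4 (6.92 and 4.503 CPM) and Tbx3 (3.435 CPM) is near clusters 1 and 4. The means of Osr1 are lowest in clusters 7 and 8 and high in cluster 6.

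Levels can be compared between genes only per length, here as CPM per kilobase of merged exons. In mural cells the order ran from Foxs1 at 263 ± 142 (SD, n = 4 strains) through Epas1 at 111 ± 35.7, Ebf1 at 37.0 ± 10.7, Osr1 at 33.4 ± 32.3, Nr2f2 at 27.9 ± 4.6, Ebf2 at 25.5 ± 6.14, Tbx2 at 25.1 ± 8.94 and Prrx1 at 21.5 ± 15.3 to Nr2f1 at 6.53 ± 6.67 and Tbx3 at 6.18 ± 2.71. The ranges of mean ± SD of neighbours in this order overlapped except between Epas1 and Ebf1. The place of Osr1 in it depended on cluster 6, since in clusters 7 and 8 its level was 4.85 ± 6.70 CPM per kilobase (SD, n = 4 strains), against 202 ± 78.7 in cluster 6 (n = 3). In fibroblasts the order began with Osr1 at 83.8 ± 42.2 and Foxs1 at 54.4 ± 37.9 and went on with Epas1 at 18.3 ± 10.0, Ebf2 at 17.5 ± 6.80, Ebf1 at 13.98 ± 3.66, Prrx1 at 10.8 ± 4.86 and Nr2f2 at 3.26 ± 2.22, and ended with Tbx2 at 0.848 ± 0.532, Nr2f1 at 0.658 ± 0.468 and Tbx3 at 0.275 ± 0.152. Here the ranges of mean ± SD of neighbours overlapped except between Prrx1 and Nr2f2. The short transcript of Foxs1, 1311 bases of exon, put it at the head of the mural list although Epas1 had more reads.

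**Figure D3:**
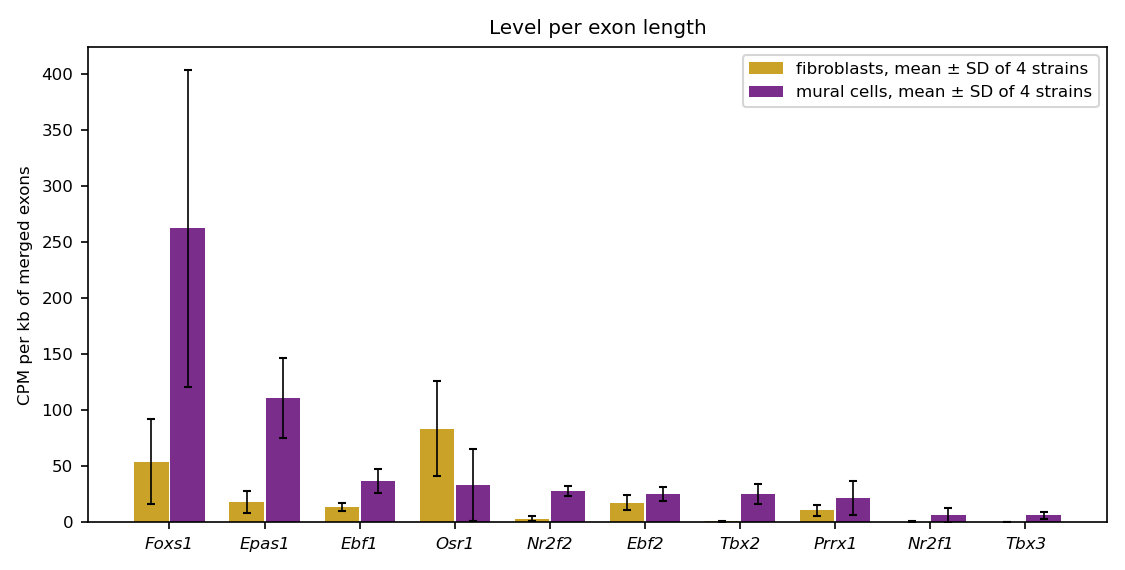
Level of each factor per kilobase of merged exons in fibroblasts and mural cells. Bars are means of 4 strains and error bars are SD. Foxs1 and Epas1 stand highest in mural cells, and Osr1 is the highest in fibroblasts at 83.8 CPM per kilobase.

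Cluster 6 was compared with the other mural clusters, 7 and 8. Its 39 cells came mainly from Cspg4dsRED (33 cells), with 3 each from C57BL6 and Acta2GFP and none from PdgfrbGFP. Its smooth muscle markers summed to 9946 to 13384 CPM, its pericyte markers to 41.0 to 669 CPM and its fibroblast markers to 3108 to 12491 CPM. In edgeR 0 of the 10 factors passed the threshold, although 5 had an unadjusted p under 0.05, as did 695 of all 12117 genes, and 0.033% of all genes were called. DESeq2 called 3 of them, Ebf2, Tbx3 and Osr1, and 2.99% of all genes. With strain as a replicate block Ebf2 and Osr1 were called and 0.883% of all genes were called, without the filter the same 2 factors and 0.418%, and with thinned cells Ebf2 and 0.158%.

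Osr1 was higher in cluster 6 than in clusters 7 and 8 in 3 of 3 strains. It was at 495, 526 and 230 CPM in cluster 6 of C57BL6, Cspg4dsRED and Acta2GFP and at 4.99, 1.34 and 30.7 CPM in clusters 7 and 8 of the same strains. The log2 fold change was 5.15 ± 1.19 with an adjusted p of 0.272, and 0.000619 with the replicate block. In Cspg4dsRED 84.9% of the 33 cells reached 10 CPM and the median cell was at 404 CPM. In Acta2GFP 99.3% of the Osr1 reads of cluster 6 came from 1 of the 3 cells, and the other cells of that sum were at 2.05 CPM. For comparison, Osr1 was at 128 to 264 CPM in the strains of fibroblast cluster 4 and at 257 to 507 CPM in those of fibroblast cluster 5. In fibroblast clusters 1, 2 and 3 it was at 1.23 to 173, 39.6 to 168 and 3.24 to 212.5 CPM. Without Acta2GFP the log2 fold change of cluster 6 was 7.31 and passed the threshold, with an adjusted p of 0.00137, in a fit in which 0.495% of all genes were called.

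Ebf2 showed the opposite pattern. It was at 0.9796, 1.02 and 3.78 CPM in cluster 6 and at 266, 213 and 199 CPM in clusters 7 and 8 of C57BL6, Cspg4dsRED and Acta2GFP. Only 19 Ebf2 reads were counted in the 39 cells, and 1 cell reached 10 CPM (2.56%, 0.0649 to 13.5%). The log2 fold change was -6.70 ± 1.32 with an adjusted p of 0.158, and 0.0156 with the replicate block. Its relative Ebf1 was also lower in cluster 6 in 3 of 3 strains, at 427, 108 and 29.2 CPM against 499, 333.5 and 317 CPM (log2 fold change -1.05 ± 0.85, adjusted p 0.994), and 21 of the 39 cells reached 10 CPM of Ebf1. A count of 1 or more was found in 31 cells for Ebf1 and in 8 cells for Ebf2.

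Tbx2, Tbx3, Nr2f1, Nr2f2, Epas1 and Foxs1 were lower in cluster 6 than in clusters 7 and 8 in 3 of 3 strains, but none of these passed the threshold in edgeR. Prrx1 was higher in cluster 6 of C57BL6, at 407.5 against 153.8 CPM, and lower in Cspg4dsRED, at 101 against 123 CPM, and in Acta2GFP, at 191 against 518 CPM. Tbx3 had 2 reads in its 39 cells, and 0 of 39 cells reached 10 CPM, with an exact 95% upper limit of 9.025%, or 7.69% as 3 of 39 cells. Nr2f1 had 7 reads, all in 1 cell. Tbx2 was at 0, 6.76 and 42.6 CPM, and in Acta2GFP all of its reads came from 1 cell. Nr2f2 was at 136, 22.02 and 82.1 CPM and Epas1 at 121.5, 164 and 364 CPM, each lower than in clusters 7 and 8 of the same strain. These sums rest on few cells: without the cell with most reads, Nr2f2 was at 2.71 CPM in C57BL6 and 6.55 CPM in Acta2GFP, and Epas1 at 0 and 96.4 CPM. The endothelial marker Pecam1 was at 273 CPM in cluster 6 of Acta2GFP, and its part was not tested. Foxs1 was at 0, 139 and 2.16 CPM, and 45.5% of the 33 Cspg4dsRED cells reached 10 CPM of it. In edgeR Epas1 had a log2 fold change of -1.65 ± 0.66 with an adjusted p of 0.694 and Tbx3 an adjusted p of 0.453.

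**Figure D4:**
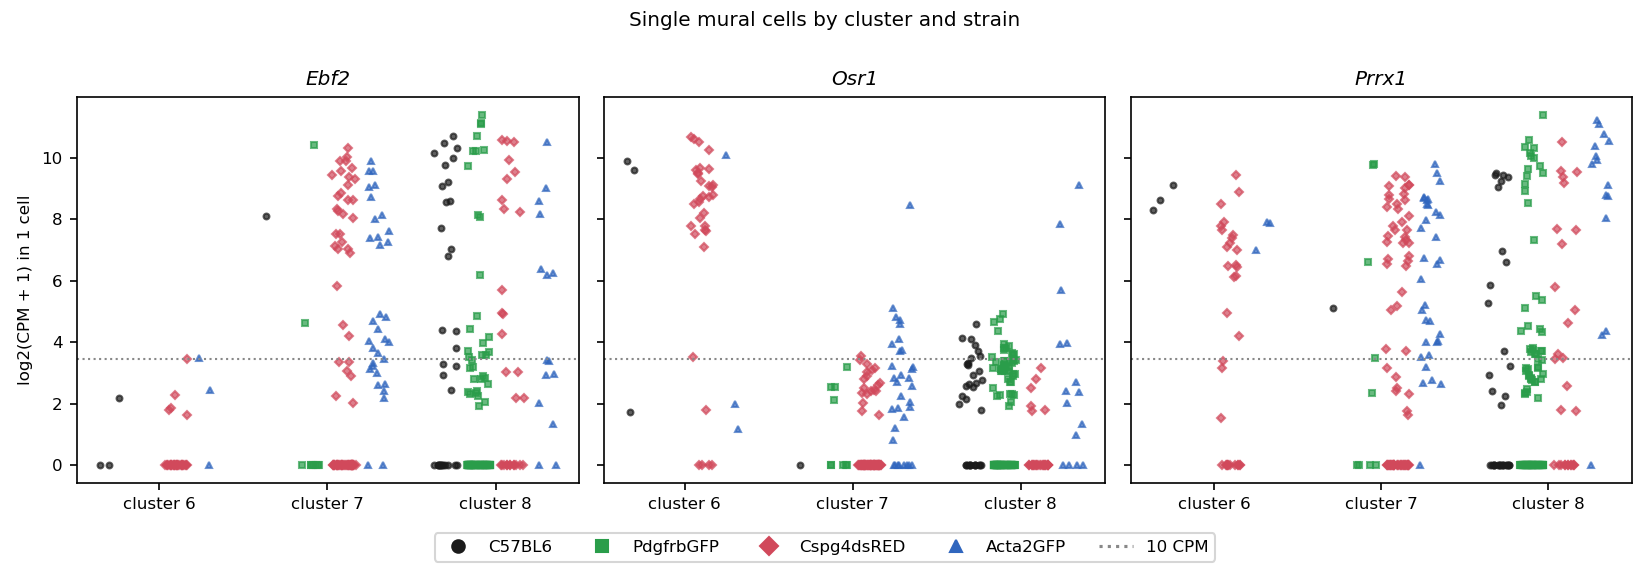
Ebf2, Osr1 and Prrx1 in single mural cells of clusters 6 to 8, as log2(CPM + 1), with symbols for strains and a dotted line at 10 CPM. In cluster 6 most cells lie above the line for Osr1 and 1 of 39 reaches it for Ebf2, and for Prrx1 the cluster 8 cells of Acta2GFP lie mostly above those of the other strains.

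Cluster 8 was then compared with cluster 7. Cluster 8 carried the pericyte markers (4057 to 15046 CPM summed, against 353 to 1753 CPM in cluster 7), and cluster 7 the smooth muscle markers (10670 to 15717 CPM, against 201 to 4033 CPM). Cardiomyocyte markers differed in the same way, at 1312 to 1922 CPM in cluster 7 and 190 to 346 CPM in cluster 8, with Pln called (adjusted p 0.0314), and the immune marker Lyz2 was at 184.5 CPM in cluster 7 of PdgfrbGFP. Fibroblast markers went the other way, at 309 to 776.5 CPM in cluster 7 and 959.5 to 3334 CPM in cluster 8. The part of these markers in the values below was not tested. In edgeR 0 of the 10 factors passed the threshold, 0 had an unadjusted p under 0.05, and 0.194% of all genes were called. DESeq2 called 0 of the factors and 3.44% of all genes. Tbx2 was at 63.3, 133 and 209 CPM in cluster 7 of PdgfrbGFP, Cspg4dsRED and Acta2GFP and at 51.7, 44.1 and 1.34 CPM in cluster 8, lower in cluster 8 in 3 of 3 strains (log2 fold change -2.11 ± 1.22, adjusted p 0.878). In PdgfrbGFP the direction rested on 1 of 9 cells of cluster 7, without which Tbx2 was at 0.565 CPM there, below cluster 8. Foxs1 was at 286, 158 and 118 CPM in cluster 7 and at 556, 477 and 278 CPM in cluster 8, higher in cluster 8 in 3 of 3 strains (1.08 ± 0.62, adjusted p 0.878). Epas1 was at 519, 1011 and 1062 CPM in cluster 7 and at 494, 869 and 582 CPM in cluster 8. Ebf1, Ebf2, Nr2f1, Prrx1 and Osr1 were higher in cluster 8 in 2 of 3 strains and Tbx3 in 1 of 3, with adjusted p-values of 0.952 to 0.9899. The levels of Nr2f2 in cluster 8 were the most even of all members, at 254, 248, 267 and 252 CPM in the 4 strains. In cluster 7 Nr2f2 was at 449, 251 and 307 CPM in PdgfrbGFP, Cspg4dsRED and Acta2GFP. It was lower in cluster 8 in 2 of 3 strains (log2 fold change -0.51 ± 0.57, adjusted p 0.989).

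Prrx1 in cluster 8 depended on the strain. It was at 158, 150 and 150 CPM in C57BL6, PdgfrbGFP and Cspg4dsRED and at 1104 CPM in Acta2GFP. Of the 15 Acta2GFP cells, 93.3% reached 10 CPM, the median cell was at 889 CPM, and without the cell with most reads the sum was at 906 CPM. The markers of the same sum differed too. Fibroblast markers were at 3334 CPM, against 959.5 to 1370 CPM in cluster 8 of the other strains, smooth muscle markers at 4033 CPM, against 201 to 1170 CPM, and pericyte markers at 4057 CPM, against 12208 to 15046 CPM. Their part in the Prrx1 level was not tested. The Ebf2 level of cluster 7 in PdgfrbGFP did depend on 1 of 9 cells, and was at 168 CPM with it and 1.68 CPM without it.

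Fibroblast clusters were compared to see whether the factors divide fibroblasts. Among clusters 2 to 5, edgeR called 0 of the 10 factors, 2 had an unadjusted p under 0.05, and 0.301% of all genes were called. DESeq2 called Epas1 alone, with an adjusted p of 0.00354, and 3.29% of all genes. Epas1 was highest in cluster 3, at 200, 290 and 210 CPM in C57BL6, PdgfrbGFP and Acta2GFP, and lower in cluster 5, at 70.5 and 34.6 CPM in C57BL6 and PdgfrbGFP. Its highest and lowest fitted clusters differed by 2.22 on the log2 scale, with an adjusted p of 0.279 in edgeR. The PdgfrbGFP sum of cluster 3 held 7 cells, and 62.1% of its Epas1 reads came from 1 of them. Pericyte markers summed to 206 to 282.5 CPM in cluster 3 and to 19.7 to 119.5 CPM in clusters 2, 4 and 5. Smooth muscle markers summed to 75.2 to 1447 CPM in cluster 3 and to 16.6 to 532 CPM in those clusters. The part of these markers in the Epas1 level was not tested. Osr1 was lowest in cluster 2 and highest in cluster 5 in C57BL6, at 109 and 507 CPM, and was at 168 and 257 CPM in the same clusters of PdgfrbGFP, where the 7 cells of cluster 3 were lower at 3.24 CPM. The differences in Osr1 did not pass the threshold (adjusted p 0.836). Ebf1 and Ebf2 were the most even, with fitted differences of 0.26 and 0.19 on the log2 scale. Tbx3 had the widest, 5.42 (adjusted p 0.559), but its highest sum, 10.7 CPM in cluster 4 of PdgfrbGFP, was 0.159 CPM without 1 cell. Those of Foxs1, Tbx2, Nr2f1, Nr2f2 and Prrx1 were 1.16 to 4.79, with adjusted p-values of 0.793 to 1, and the median over all genes was 1.62.

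Cluster 1, which the study considered likely to be valve interstitial cells, was compared with clusters 2 to 5. In Cspg4dsRED its sum held 3 cells. The 5 mural markers summed to 125.5 to 730 CPM in cluster 1 and to 63.6 to 210 CPM in clusters 2 to 5. The endothelial marker Tek was called lower in cluster 1 (edgeR adjusted p 0.00717). The part of these markers in the values below was not tested. In edgeR 0 of the 10 factors passed the threshold, 0 had an unadjusted p under 0.05, and 1.33% of all genes were called. DESeq2 called 0 of the factors and 5.3% of all genes, and 2 factors and 1707 genes had an unadjusted p under 0.05 in it. Ebf2 was at 34.5, 67.9, 0 and 5.00 CPM in cluster 1 and at 148, 126, 60.8 and 209 CPM in clusters 2 to 5, lower in 4 of 4 strains although the groups overlapped (log2 fold change -2.21 ± 1.03, adjusted p 0.574). Osr1 was lower in cluster 1 in 4 of 4 strains, at 16.1, 173, 1.23 and 97.4 CPM against 280, 225, 86.2 and 131 CPM, with an adjusted p of 0.893. Tbx3 was at 28.7 CPM in cluster 1 of C57BL6, of which 96.5% came from 1 of 19 cells, and was higher in cluster 1 in 3 of 4 strains (adjusted p 0.711). This direction rested on single cells elsewhere too, since without 1 cell Tbx3 fell from 7.40 to 0 CPM in Cspg4dsRED and from 3.77 to 0.581 CPM in Acta2GFP, where clusters 2 to 5 were at 1.43 CPM. Tbx2 was lower in 4 of 4 strains, at 0.169, 0, 0 and 2.83 CPM against 3.42, 4.71, 0.308 and 4.99 CPM (adjusted p 0.869). Foxs1 was lower in 4 of 4 strains too, at 21.5, 50.8, 133 and 4.81 CPM against 43.6, 51.9, 147 and 56.3 CPM (adjusted p 0.995). Without the cell with most reads, Foxs1 in cluster 1 was at 0.928, 19.2, 3.56 and 3.06 CPM. Ebf1, Nr2f1 and Epas1 were higher in cluster 1 in 2 of 4 strains and Nr2f2 and Prrx1 in 1 of 4, with adjusted p-values of 0.862 to 0.9996. Without 1 cell Nr2f1 fell from 16.7 to 0.515 CPM in PdgfrbGFP and from 35.8 to 0 CPM in Cspg4dsRED. Scx, a factor of tendon and valve cells from the list of fibroblast factors, was the member of that list called here, with a mean over the 4 strains of 149 ± 44.2 CPM (SD) in cluster 1 and 0.695 ± 0.582 CPM (SD) in the other fibroblast clusters (edgeR adjusted p 0.00298).

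**Figure D5:**
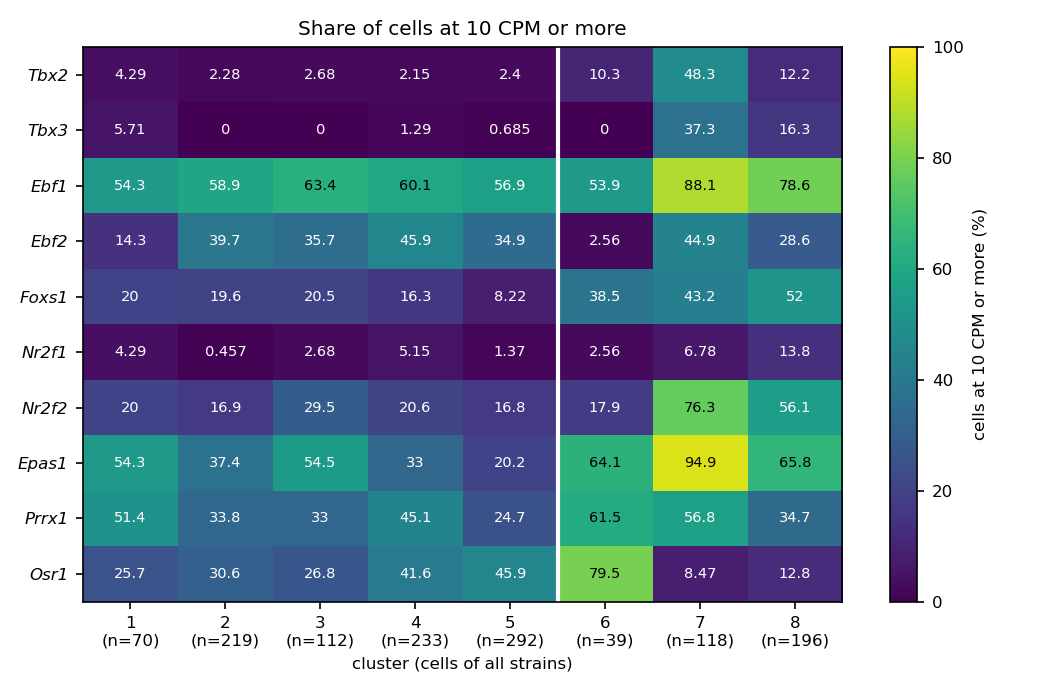
Share of cells at 10 CPM or more for each factor and cluster, over all strains, in percent, with the number of cells under each cluster. Epas1 reaches 94.9% of cluster 7, Osr1 79.5% of cluster 6, and Tbx3 0% of clusters 2, 3 and 6.

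Co-detection was counted in single cells. A mural cell had a median of 4 of the 10 factors at 10 CPM or more and a fibroblast a median of 2. Of 353 mural cells, 33 had both Tbx2 and Tbx3, 52 had Tbx2 without Tbx3 and 43 had Tbx3 without Tbx2. In cluster 7 of Cspg4dsRED, 19 of 75 cells had both, 19 had Tbx2 alone and 12 had Tbx3 alone, and in cluster 8 of PdgfrbGFP, 3 of 119 cells had both, 6 had Tbx2 alone and 14 had Tbx3 alone. Ebf2 was mostly found together with Ebf1 in mural cells: 100 of the 110 cells with Ebf2 also had Ebf1, which 79.0% of all mural cells had. In fibroblasts 221 of the 346 cells with Ebf2 had Ebf1, which 58.7% of all fibroblasts had. In Cspg4dsRED mural cells, 41 cells had Ebf2 without Osr1, 29 had Osr1 without Ebf2 and 0 of 137 had both. This split followed the clusters: 28 of the 29 were in cluster 6, and the 41 were in clusters 7 (28 cells) and 8 (13 cells). Cells with both were found in the other strains, 10 of 51 in Acta2GFP, 5 of 37 in C57BL6 and 2 of 128 in PdgfrbGFP. The part of depth in these shares was not tested, and mural cells had a median of 208557 counts and fibroblasts of 300089.

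Detection was also read as a count of 1 or more. Osr1 had a count in 47.3% of mural cells, but the median cell with a count had 1 read, and 18.7% reached 10 CPM. After thinning to 50000 counts per cell, the share with an Osr1 count was 20.8% in mural cells and 40.5% in fibroblasts. For Epas1 the share with a count was 83.9% of mural cells and 54.5% of fibroblasts before thinning, and 74.9% and 36.1% after it. The order of fibroblasts and mural cells in these shares was the same with and without thinning for Osr1 and Epas1.

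The genes whose levels followed each factor most closely were named from Pearson's r of log2(CPM + 1) over 21 sums of strain and cluster with 10 or more cells, among 10326 genes. The sums share strains and plates, so these values are descriptions. They were Ankrd37 (0.91), Atp5b (0.90) and Pde4c (0.89) for Tbx2, and Tcf15 (0.88), Tbx3os1 (0.86) and Gprc5c (0.86) for Tbx3. Tbx3os1 overlaps 1.74% of the Tbx3 exon bases on the other strand. For Ebf1 they were Gab1 (0.89), Cdc42ep4 (0.87) and Epb41l1 (0.86), and for Ebf2 the antisense gene Gm10860 (0.98) and Tfpi (0.81). Cystm1 (0.87), Gm20458 (0.86) and Dbndd2 (0.85) followed Foxs1. Btg1 (0.83), Fam162a (0.81) and Cfl1 (0.78) followed Nr2f1, and Pcdh1 (0.88), Scn3a (0.87) and Trac (0.87) followed Nr2f2. For Epas1 they were Luzp1, Notch3 and Tpm2 (each 0.87), for Prrx1 Zeb2 (0.78), Zfp87 (0.72) and Nfkb2 (0.72), and for Osr1 Steap3 (0.93), Pcolce2 (0.92) and Fbln5 (0.92). Among the members themselves, Ebf1 and Nr2f2 had an r of 0.78, Tbx2 and Tbx3 of 0.72, Nr2f2 and Epas1 of 0.72, and Tbx3 and Osr1 of -0.85.

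The labelled cell types were checked against their defining markers. The 5 fibroblast markers summed to 11069 to 13700 CPM in fibroblasts and to 1289 to 2536 CPM in mural cells, and the 5 mural markers to 66.7 to 254 CPM and to 5177 to 11671 CPM. Immune markers reached at most 30.1 CPM, Schwann cell markers 3.62 CPM and epicardial markers 0.569 CPM on either side.

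Other genes of the same families and pathways were read from fixed lists for mural cells against fibroblasts. These lists were also chosen with earlier results of these data known. Of 26 relatives of the 10 factors, 18 were tested and 0 were called in edgeR or DESeq2, against 5.93% and 13.2% of all genes. In edgeR 3 had an unadjusted p under 0.05, as did 2573 of all 15117 genes, and their median log2 fold change was -0.05. Of 19 smooth muscle and Notch effector factors, 16 were tested, 5 were higher in mural cells and 1 was lower, where 2.45% of all genes were higher and 3.47% lower. Myocd, the coactivator of serum response factor in muscle, was at 345 ± 346 CPM against 11.7 ± 17.6 CPM (SD, n = 4, adjusted p 0.0476). Hey2, a Notch target, was at 75.1 ± 44.4 against 2.97 ± 3.98 CPM (adjusted p 0.0370), and Mef2c at 402 ± 17.2 against 56.5 ± 17.3 CPM (adjusted p 0.000419). Of 20 fibroblast factors, 19 were tested and 5 were lower in mural cells (3.47% of all genes), among them Twist2 (0.590 ± 0.169 against 32.0 ± 15.7 CPM, adjusted p 0.00265), Scx (0.296 ± 0.210 against 14.7 ± 6.51 CPM, adjusted p 0.0180) and Meox1 (10.1 ± 9.27 against 339 ± 73.5 CPM, adjusted p 0.00715).

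The pathway of Epas1 was read from regulators and targets of the hypoxia-inducible factors. Of 8 regulators, all were tested and 0 were called in edgeR, where 5.93% of all genes were called. In edgeR 1 had an unadjusted p under 0.05, and DESeq2 called 1 and 13.2% of all genes. The median log2 fold change of the regulators was 0.10. Of 20 target genes, 19 were tested and 3 were called, all higher in mural cells (2.45% of all genes), with a median of -0.14 for the list. They were Ankrd37 (33.8 ± 15.2 against 2.33 ± 2.13 CPM, adjusted p 0.0253), Ndufa4l2, a mitochondrial protein gene (1410 ± 1025 against 199 ± 51.0 CPM, adjusted p 0.0145), and the glycolytic enzyme gene Aldoa (1812 ± 232 against 933 ± 77.0 CPM, adjusted p 0.0391). In cluster 1 against clusters 2 to 5, Scx was the gene called in these 5 lists, where 1.33% of all genes were called. In the other 3 comparisons 0 of their genes were called in edgeR, against 0.033% to 0.301% of all genes. In those 3, from 0 to 5 genes of a list had an unadjusted p under 0.05. DESeq2 called 0 to 2 genes of a list there, and 2.99% to 3.44% of all genes.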

How the data were processed

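Single heart cells were sequenced by Smart-seq2. According to its methods, Trim Galore was used by the authors for trimming. They mapped them to GRCm38 with TopHat2, removed what they call doublets with samtools, counted reads per gene with featureCounts and filtered cells on counts, genes, spike-ins and mitochondrial reads. The annotation release and strand setting were not given in the sources used here. The deposited values were raw counts per gene and cell. The submitters' processing notes also name bcl2fastq, Bowtie, Bowtie2 and Subread. ERCC spike-ins, 1.82% of counts, were left out. No further filter on cells was applied to the data and no doublet caller was run. Comparisons left out a strain, or its sum of a cluster, where cells were too few, as given below. Thinned sums also left out cells with fewer counts than the thinning depth.

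For each comparison the counts of a strain's cells were added up on either side, where both had 3 or more cells, and tested with edgeR 4.0.16 (R 4.3.3), TMM factors and the filterByExpr filter (min.count of 10). Adjustment was made over all genes by the Benjamini-Hochberg method (threshold 0.05). An SE is the size of a log2 fold change over the root of its F statistic. Alternatives were DESeq2 1.42.0, DESeq2 size factors in edgeR, no filter, strain as a replicate block, thinning of cells and each strain left out. For mural cells against fibroblasts, clusters 1 and 6 were also left out. Thinning drew 50000 counts from each cell that had as many. Both sums of a strain share its label, which is where the pairing comes from, although C57BL6 fibroblasts came from more plates than C57BL6 mural cells. Deviations of same-strain sums from their group means correlated at 0.07 to 0.18 for fibroblasts against mural cells and at 0.03 to 0.12 for cluster 6 against clusters 7 and 8. The test was also run on simulated counts with the same spread for every gene and no strain effects. Its outcome is not given here, and such counts differ from the real sums. Positions, exons and symbols came from GENCODE M21, and promoters from RefSeq.

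All 10 members were named in every comparison. From each other list, the 3 genes with the largest fold change per direction were named, among those called and alike in direction in every strain. For each member the 3 genes with the highest r were named, among genes with a mean of 10 CPM or more. One such gene is not reported here. The members and lists were chosen with earlier results of these data known.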

Additional observations from a re-analysis of the deposited data

Results flagged for a closer look

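In groups of 4 strains, 60 sets of values were examined for a strain that stood apart (Dixon's ratio of the gap to the range, above its 95% critical value for 4 samples), and 6 did. Chance gives about 1 in 20. Prrx1 in cluster 8 of Acta2GFP was at 1104 CPM, against 150 to 158 CPM in the other strains. In that sum 30.4% of the Prrx1 reads came from 1 of 15 cells, fibroblast markers were at 3334 CPM, against 959.5 to 1370 CPM, and pericyte markers at 4057 CPM, against 12208 to 15046 CPM. Osr1 in cluster 8 of Acta2GFP was at 70.9 CPM, against 1.05 to 5.15 CPM, and 76.0% of its reads came from 1 of 15 cells. Foxs1 in Cspg4dsRED was at 146 CPM in all fibroblasts (26 cells), against 42.8 to 51.8 CPM, and at 259 CPM in cluster 2 (8 cells), against 62.3 to 95.8 CPM, with 18.7% and 27.3% of the reads in 1 cell. Tbx3 in mural cells of C57BL6 was at 67.6 CPM, against 29.2 to 34.4 CPM, and 37.0% of its reads came from 1 of 37 cells. Tbx2 in cluster 1 of Acta2GFP was at 2.83 CPM, against 0 to 0.169 CPM, and at 1.45 CPM without 1 of 26 cells. Strain, sort and plate cannot be told apart in these values.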

How the results depend on the processing

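For mural cells against fibroblasts, every factor kept its direction in all 10 alternatives. There, 896 genes were called in the main setting, 1926 with DESeq2 and 409 to 605 with 1 strain left out. The number of factors called was 2 to 6 with 1 strain left out and 5 with the replicate block. For cluster 1 against clusters 2 to 5 (176 genes called), DESeq2 called 689 genes, the replicate block 98, and leaving out 1 strain 26 to 110. For cluster 8 against cluster 7 (23 genes), DESeq2 called 380, DESeq2 size factors 45, no filter 201, the replicate block 82, and leaving out 1 strain 0 (without PdgfrbGFP) to 124 (without Acta2GFP). For cluster 6 against clusters 7 and 8 (4 genes), DESeq2 called 340, no filter 100, the replicate block 107, thinning 16, and leaving out 1 strain 0 (without Cspg4dsRED) to 63 (without Acta2GFP). Of the 10 factors there, DESeq2 called 3, no filter 2, the replicate block 2, thinning 1, and leaving out 1 strain 0 to 1. Among clusters 2 to 5 (50 genes), DESeq2 called 460 genes and 1 factor, no filter called 77 genes, and leaving out 1 strain gave 0 (without PdgfrbGFP) to 22 genes. The cause of these changes was not tested.

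Some uncalled fold changes turned their direction, on the log2 scale. In cluster 1, Epas1 was at -0.17 with the replicate block and Prrx1 at -0.04 with thinning. With 1 strain left out, Prrx1 was at -0.34 to 0.34 and Nr2f2 at -1.47 to 0.17 there. In cluster 8 against cluster 7, Ebf2 was at -0.06 with DESeq2 and with its size factors, and with 1 strain left out Ebf1 was at -0.84 to 0.51, Ebf2 at -0.07 to 0.56, Nr2f1 at -0.51 to 1.41, Prrx1 at -0.65 to 2.14 and Osr1 at -0.05 to 3.03. In cluster 6, Prrx1 was at 0.25 with DESeq2 and with its size factors and at -0.95 to 0.76 with 1 strain left out. Without the filter, Ebf1 lost its call in mural cells against fibroblasts (adjusted p 0.0517). The replicate block changed no other call of a factor than Foxs1, Ebf2 and Osr1. It moved the median log2 fold change of all genes from -0.32 to -1.08 in cluster 6 and from 0.02 to -0.20 in mural cells against fibroblasts. Shares of cells with a count moved beyond their counting interval in all 20 values when cells were thinned, and the shares at 10 CPM and the pair counts were not thinned. Sums of 3 cells limit cluster 6 in C57BL6 and Acta2GFP and cluster 1 in Cspg4dsRED.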
